A study of Mus musculus with 9 samples.

Results

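A group of 9 genes of heme breakdown and iron handling was followed in macrophages sorted from mouse skin wounds at day 14 and day 4 after injury. Hmox1, Blvra and Blvrb encode the enzymes that break down heme, Fth1 and Ftl1 the subunits of ferritin, Slc40a1 the iron exporter ferroportin, Tfrc the transferrin receptor, and Slc11a1 and Slc11a2 a pair of iron and manganese transporters. They were chosen by symbol, as known genes of the pathway and with earlier results of these data in view, and all 9 were found among the 18303 genes of the deposited count table. The day 14 group held 5 RNA-seq libraries and the day 4 group held 4 libraries. All were C57BL/6J wild-type with no treatment, and the cells had been sorted as CD45+CD11b+F4/80+, which selects leukocytes that carry macrophage surface proteins. The labels give no age and do not state whether animals were pooled or each library had its own animal; p-values therefore reflect only how these libraries vary, which may be technical.

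Macrophages recycle the iron of red blood cells. Heme oxygenase opens the heme ring and frees its iron, biliverdin reductase turns the remaining biliverdin into bilirubin, and the iron is stored in ferritin or leaves the cell through ferroportin. Iron bound to transferrin enters through the transferrin receptor, and transporters of the NRAMP family move iron out of endosomes and phagosomes. In a skin wound, macrophages meet heme from red cells that leaked out of damaged vessels.

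Total counts ranged from 17982633 to 50445171 in the day 14 libraries and from 26479017 to 57809918 in the day 4 libraries. In day 14 replicate 5, 808 of 850 well-counted genes that lie past a point on chromosome 9, on the sex chromosomes or at no known position were at 0. These regions were left out of the test, and 0 of the 9 genes lie there. Macrophage transcripts were abundant. Lyz2, the macrophage lysozyme, averaged 11468 ± 991 CPM in day 14 libraries and 10742 ± 556 CPM in day 4 libraries (SD, n = 5 and 4). Csf1r, the receptor for the macrophage growth factor CSF1, averaged 2126 ± 113 CPM in day 14 libraries and 2159 ± 194 CPM in day 4 libraries. CPM, the usual depth-corrected count unit, are relative to the counts of all genes tested in a library and were scaled with TMM. Of 10 macrophage and sort markers, Ptprc and Emr1, which encode CD45 and F4/80, were higher at day 14, and Itgam, Cd68, Fcgr1 and Mertk were lower. Genes of other cells were present too. Of 14 fibroblast markers, 11 were lower at day 14, and the summed level of 13 of them was 6665 to 10820 CPM at day 14 and 12120 to 24330 CPM at day 4. The 10 macrophage and sort markers summed to 20950 to 23180 CPM at day 14 and 19900 to 23490 CPM at day 4. In day 4 replicate 2 the fibroblast sum, 24330 CPM, was above the macrophage sum, 19900 CPM. In every other library the fibroblast sum was the lower of the 2. Higher at day 14 were 6 of 10 dendritic cell, 3 of 3 eosinophil and 4 of 5 keratinocyte markers tested. Cd4, listed as a T cell marker, was higher too. The other T cell markers listed, Cd3e, Cd3d, Cd3g and Cd8a, reached at most 5, 7, 5 and 5 counts in a library. They were too scarce to be tested, and whether Cd4 came from T cells was not tested. Of 3 platelet markers tested, 1 was higher and 2 were lower. Of 7 neutrophil markers tested, 0 passed with edgeR (1 at an unadjusted p under 0.05, and 1 of 6 with DESeq2 or limma-voom), and the summed level of 8 neutrophil markers ran from 258 to 1825 CPM at day 14 and from 655 to 1795 CPM at day 4. Of 5 endothelial markers, 0 passed with edgeR (1 at an unadjusted p under 0.05, and 1 with DESeq2 or limma-voom). The part of these cells in the results was not tested. In sorted bulk RNA, fewer cells of a type and less RNA per cell cannot be told apart.

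Of the 9 genes, 4 were lower at day 14 (Hmox1, Fth1, Blvrb and Ftl1), 2 were higher (Slc11a2 and Slc40a1) and 3 did not pass (Blvra, Tfrc and Slc11a1). The test was edgeR's quasi-likelihood test with Benjamini-Hochberg adjustment over 12237 genes and a threshold of 0.05, which called 31.1% of all genes tested, 15.9% as higher and 15.2% as lower. The median log2 fold change, day 14 over day 4, was -0.22 over the 9 genes and 0.01 over all genes tested. The libraries of the 2 days did not overlap for 4 of the 9 genes (Hmox1, Fth1, Ftl1 and Slc11a2), against 25.2% of all genes tested. Hmox1 alone passed and changed at least 2-fold, as 9.04% of all genes tested did. Without day 14 replicate 5, 4 genes were again lower and 2 higher, with Tfrc in place of Slc40a1.

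**Figure D1:**
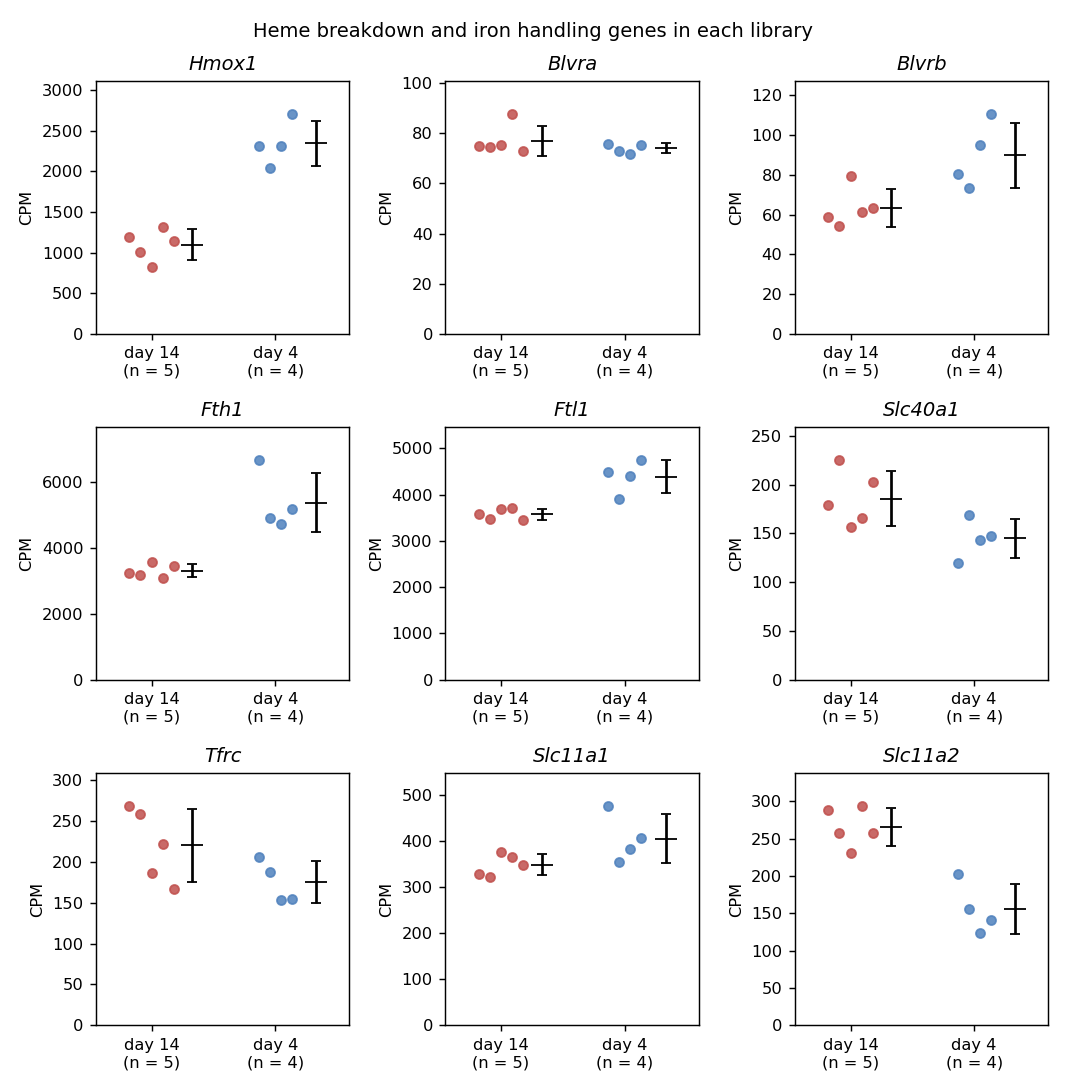
Level of each gene in CPM (TMM-scaled, axis from 0) in every library, day 14 left (n = 5) and day 4 right (n = 4); points are libraries and black marks the mean ± SD. The days are apart for Hmox1, Fth1, Ftl1 and Slc11a2 and overlap for the other 5 genes.

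Hmox1, heme oxygenase 1, the stress-induced enzyme that opens heme, was the gene with the largest change among the 9. It held 1196, 1008, 817, 1311 and 1146 CPM in the day 14 libraries, against 2312, 2037, 2311 and 2704 CPM in the day 4 libraries. Every day 14 library lay below every day 4 library, and the lowest was day 14 replicate 3, which also had the highest sum of neutrophil markers (1825 CPM). Day 4 replicate 1 had a similar sum (1795 CPM) with Hmox1 at 2312 CPM, and a link between the 2 was not tested. Hmox1 fell 2.14-fold (log2 fold change -1.10 ± 0.13 SE, adjusted p = 9.49e-05 by edgeR), and 8.78% of all genes tested had a change at least as large in size. It was the 95th most abundant of 12237 genes at day 14 and the 29th at day 4. The call held in all 21 alternatives tried, with log2 fold changes from -1.17 to -1.01. It was as large among the 6 shallower libraries (-1.04 ± 0.17) as among the 3 deeper ones (-1.08), which hold 1 library of day 14 that is assumed to vary like the others. Hmox1 lies on chromosome 8 (75093618 to 75100593, plus strand, GRCm38).

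The fibroblast markers given above fell in the same comparison, and their part in the fall of Hmox1 was not tested. Hemoglobin transcripts, listed as erythroid markers, went the other way, and which cells they came from was not tested. The hemoglobin genes Hba-a1, Hba-a2, Hbb-b1, Hbb-b2, Hbb-bs and Hbb-bt were all higher at day 14. In the 3 deeper libraries, with 1 library at day 14, Hbb-b2, Hbb-bt and Hbb-bs lost their call (log2 fold changes 1.57, 1.57 and 1.07, adjusted p = 0.17, 0.17 and 0.298 by edgeR). Hba-a1, an alpha chain of hemoglobin, averaged 9.61 ± 2.35 CPM in day 14 libraries and 2.12 ± 1.14 CPM in day 4 libraries, without overlap (log2 fold change 2.17 ± 0.35, adjusted p = 0.000764 by edgeR). The summed level of 9 erythroid markers was 26.7 to 52.2 CPM at day 14 and 6.18 to 17.8 CPM at day 4, so that hemoglobin transcripts were scarce on both days. Slc4a1, the red cell anion exchanger, Epb4.2 and the erythroid transcription factor Klf1 reached at most 2, 3 and 8 counts in a library and were not tested. The alpha genes (Hba) closely resemble each other, as do the beta genes (Hbb), and Hbb-b2 and Hbb-bt hold the same values in every library. The 6 are therefore not separate observations, and the erythroid sum includes both Hbb-b2 and Hbb-bt. Their part in the values of the heme and iron genes was not tested.

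**Figure D2:**
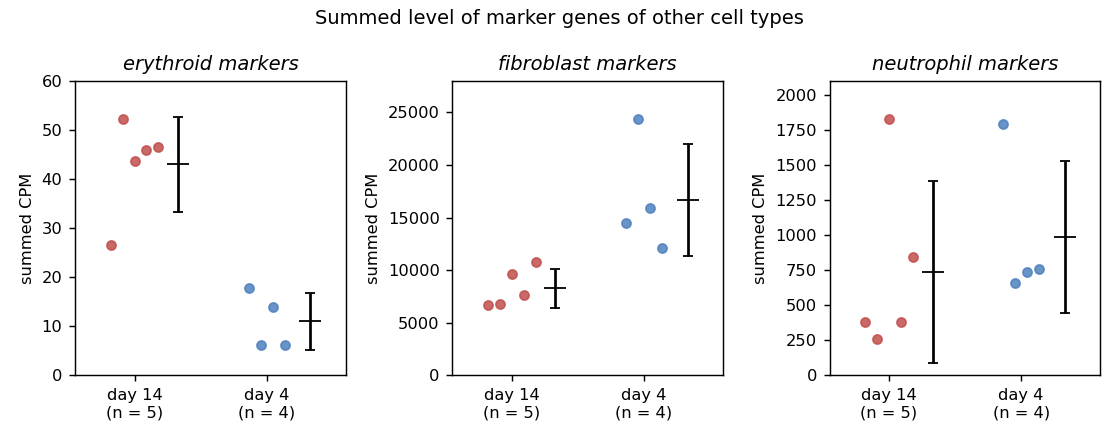
Summed CPM of 9 erythroid, 13 fibroblast and 8 neutrophil markers in every library, day 14 left (n = 5) and day 4 right (n = 4); points are libraries and black marks the mean ± SD. Erythroid sums are higher at day 14 (26.7 to 52.2 CPM) than at day 4 (6.18 to 17.8 CPM), fibroblast sums are lower, and neutrophil sums overlap. The erythroid sum includes both Hbb-b2 and Hbb-bt, which hold the same values.

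The biliverdin reductases, which act after heme oxygenase, differed from each other in their test. Blvrb, which also reduces flavins, held 58.6, 54.3, 79.5, 61.2 and 63.3 CPM at day 14, against 80.4, 73.6, 94.8 and 111 CPM at day 4. Day 14 replicate 3 lay above the lowest day 4 library, and the other 4 lay below all of them. Blvrb fell 1.42-fold (log2 fold change -0.51 ± 0.13, adjusted p = 0.0128 by edgeR). Its change was -0.27 ± 0.15 in the 6 shallower libraries (adjusted p = 0.267) and -0.82 in the 3 deeper ones, which rests on 1 day 14 library. Blvra, the main reductase of biliverdin in adult tissue, held 75.0, 74.3, 75.4, 87.7 and 72.9 CPM at day 14 and 75.9, 73.1, 71.5 and 75.2 CPM at day 4. The groups overlapped, and the log2 fold change was 0.06 ± 0.07 (adjusted p = 0.575). Hmox2, the constitutive heme oxygenase, had 102 ± 4.73 CPM in day 14 libraries and 104 ± 8.92 CPM in day 4 libraries (adjusted p = 0.77). Por, the reductase that supplies electrons to heme oxygenase, fell 1.28-fold (log2 fold change -0.35 ± 0.11, adjusted p = 0.0339), a call lost without day 14 replicates 1, 2 or 4 or day 4 replicate 1 (adjusted p from 0.0541 to 0.0927). Blvra lies on chromosome 2 (127070629 to 127097084) and Blvrb on chromosome 7 (27447978 to 27465981), both on the plus strand.

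Ferritin was among the most abundant transcripts of these cells. Together, Fth1 and Ftl1 made up 0.666% to 0.724% of the scaled counts at day 14 and 0.882% to 1.12% at day 4. Fth1, the heavy subunit, which oxidises iron as it enters the shell, held 3251, 3193, 3567, 3096 and 3456 CPM at day 14, against 6690, 4929, 4747 and 5179 CPM at day 4. The days did not overlap, and day 4 replicate 1 was the highest. Fth1 fell 1.63-fold (log2 fold change -0.70 ± 0.11, adjusted p = 0.00052 by edgeR), a call that held in all 21 alternatives. Ftl1, the light subunit, which promotes the growth of the iron core, held 3587, 3463, 3677, 3698 and 3443 CPM at day 14 and 4481, 3893, 4407 and 4750 CPM at day 4. The days did not overlap here either, by a smaller distance. Ftl1 fell 1.23-fold (log2 fold change -0.29 ± 0.08, adjusted p = 0.0201 by edgeR), and its call was lost without day 14 replicate 2 (adjusted p = 0.0554) or without day 4 replicate 3 (adjusted p = 0.0525).

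The ratio of Fth1 to Ftl1 counts within a library, which is not corrected for transcript length, was 0.837 to 1.00 at day 14 and 1.08 to 1.49 at day 4. The days did not overlap in this ratio. Fth1 and Ftl1 have processed pseudogene copies in the genome (4 and 3 symbols of the ferritin families in RefSeq, 0 of them in the count table). The 4 include Fthl17-ps2 and Fthl17-ps3, named for a related gene. Reads shared with pseudogene copies could have been split between them or lost, so the levels of Fth1 and Ftl1 are uncertain. Values that were not whole numbers did not follow such copies: they were 4 of 9 for Fth1, 0 for Ftl1 and 8 for Slc11a2, which has 0 such symbols. Fth1 lies on chromosome 19 (9980600 to 9985111, plus strand) and Ftl1 on chromosome 7 (45457944 to 45459886, minus strand).

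**Figure D3:**
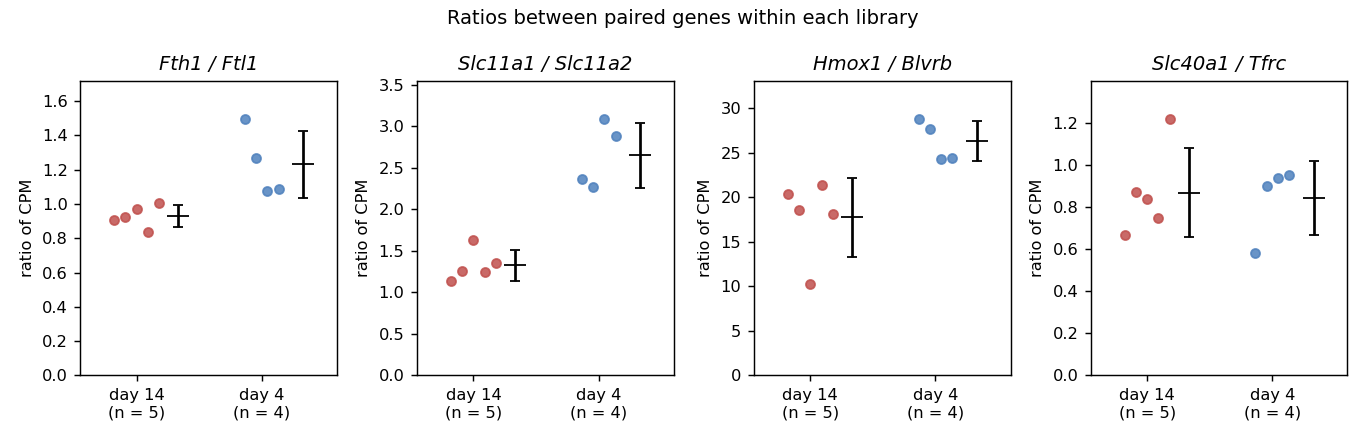
Ratio of the CPM of 2 genes within each library (axis from 0, not corrected for length), day 14 left (n = 5) and day 4 right (n = 4), with the mean ± SD in black. Fth1 / Ftl1, Slc11a1 / Slc11a2 and Hmox1 / Blvrb are lower at day 14 without overlap, and Slc40a1 / Tfrc overlaps between the days.

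Ferritin, ferroportin, the transferrin receptor and 1 of the NRAMP transporters share a sequence known from genes of iron handling. It is the iron-responsive element, a hairpin in the untranslated part of the mRNA that iron regulatory proteins bind when iron is low. A bound hairpin before the coding sequence blocks translation, and bound hairpins after it protect the mRNA from decay. RNA-seq counts can reflect the second kind of control, mixed with all else that sets mRNA level, but not the first. A search of GENCODE M21 transcripts (GRCm38) for a C, 5 bases, the loop CAGTGN with the last base not G, and 5 bases that pair with the first 5 found 1 element in the 5′ UTR of Fth1, Ftl1 and Slc40a1 and 4 in the 3′ UTR of Tfrc. Such an element stands in the 5′ UTR of 0.105% and the 3′ UTR of 0.462% of 21877 protein-coding genes. The members were chosen as known genes of iron handling, so finding the element in them is not an independent result. With 4 of 5 pairs, Slc11a2 held 1 in its 3′ UTR, and 0.654% and 3.09% of genes held one in the 5′ and 3′ UTR. The sequences are shown because their place, before or after the coding sequence, sets which of the 2 kinds of control could apply. The element of Fth1 stood in 4 annotated transcripts, and each of the other elements stood in 1. Counts per gene cannot tell transcripts with the element from any without it, and its part in the values was not tested. Capitals mark the unpaired C and the loop.
Fth1, 5′ UTR, chr19:9982732-9982760, plus strand: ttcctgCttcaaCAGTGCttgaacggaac
Ftl1, 5′ UTR, chr7:45459779-45459807, minus strand: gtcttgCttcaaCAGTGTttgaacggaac
Slc40a1, 5′ UTR, chr1:45925465-45925493, minus strand: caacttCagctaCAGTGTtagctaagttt
Tfrc, 3′ UTR, chr16:32631219-32631247, plus strand: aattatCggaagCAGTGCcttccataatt
Tfrc, 3′ UTR, chr16:32631598-32631626, plus strand: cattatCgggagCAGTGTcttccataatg
Tfrc, 3′ UTR, chr16:32631663-32631691, plus strand: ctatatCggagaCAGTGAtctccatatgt
Tfrc, 3′ UTR, chr16:32631710-32631738, plus strand: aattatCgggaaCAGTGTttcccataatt
Slc11a2, 3′ UTR, chr15:100395153-100395181, minus strand: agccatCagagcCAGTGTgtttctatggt

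Of the 3 genes with the element in the 5′ UTR, Fth1 and Ftl1 fell and Slc40a1 rose. Slc40a1 held 179, 226, 156, 166 and 203 CPM at day 14, against 120, 169.3, 144 and 147 CPM at day 4. The highest day 4 library (replicate 2) lay above the 2 lowest day 14 libraries (replicates 3 and 4). Slc40a1 rose 1.28-fold with an adjusted p just under the threshold (log2 fold change 0.36 ± 0.13, adjusted p = 0.047 by edgeR). The call was lost in 11 of 21 alternatives, with the direction kept in all of them (log2 fold changes from 0.27 to 0.44). Among these were leaving out day 14 replicates 1, 2 or 5 or day 4 replicates 1, 3 or 4 (adjusted p from 0.0737 to 0.132). Slc40a1 lies on chromosome 1 (45908070 to 45926532, minus strand).

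The transferrin receptor, with 4 elements in the 3′ UTR, did not pass. Tfrc held 269, 258, 186, 222 and 166 CPM at day 14 and 206, 188, 153 and 154 CPM at day 4. The groups overlapped, with day 14 replicates 3 and 5 within the range of day 4. The log2 fold change was 0.33 ± 0.15 (adjusted p = 0.111 by edgeR). Without day 14 replicate 5 it was 0.42 and passed (adjusted p = 0.0439). It was 0.07 ± 0.17 in the 6 shallower libraries (adjusted p = 0.831) and 0.79 in the 3 deeper ones. The deeper value rests on 1 day 14 library, replicate 1, which had the highest Tfrc of its day, and whether the change differs with depth was not tested. The ratio of Slc40a1 to Tfrc counts overlapped between the days, at 0.667 to 1.22 at day 14 and 0.581 to 0.955 at day 4. Tfrc lies on chromosome 16 (32608896 to 32632794, plus strand).

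The NRAMP transporters had opposite signs. Slc11a2, known as DMT1, carries iron from endosomes into the cytosol, and it held 288, 258, 231, 294 and 258 CPM at day 14, against 202, 156, 124 and 142 CPM at day 4. Every day 14 library lay above every day 4 library. Slc11a2 rose 1.70-fold (log2 fold change 0.77 ± 0.13, adjusted p = 0.00109 by edgeR), and the call held in all 21 alternatives, with 0.52 ± 0.14 in the 6 shallower and 1.10 in the 3 deeper libraries, again with 1 library at day 14. Slc11a1, known as NRAMP1, pumps iron and manganese out of the phagosomes of macrophages, and C57BL/6 mice are known to carry a loss-of-function allele of it. It held 329, 323, 377, 366 and 349 CPM at day 14 and 477, 354, 382 and 408 CPM at day 4. The groups overlapped, and the log2 fold change of -0.22 ± 0.10 did not pass (adjusted p = 0.114). The ratio of Slc11a1 to Slc11a2 counts was 1.14 to 1.63 at day 14 and 2.27 to 3.08 at day 4, without overlap. Slc11a1 lies on chromosome 1 (74375014 to 74386057, plus strand) and Slc11a2 on chromosome 15 (100387898 to 100424209, minus strand).

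**Figure D4:**
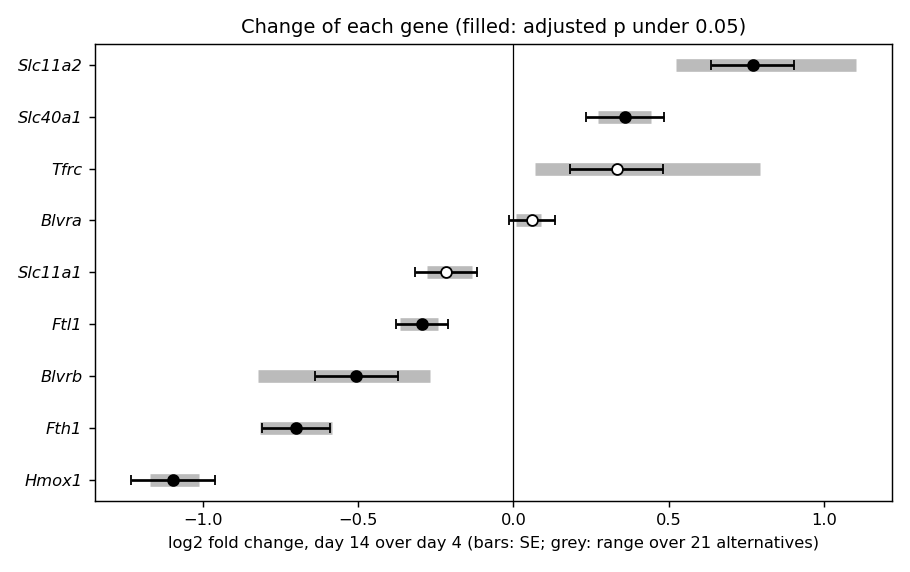
Log2 fold change of each gene, day 14 over day 4, with its standard error (bars), filled where the adjusted p is under 0.05; the grey band is the range over 21 alternatives. Hmox1, Fth1, Blvrb and Ftl1 lie below 0 and Slc11a2 and Slc40a1 above it, and the band of Tfrc, from 0.07 to 0.79, is the widest.

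Per kilobase of exon, a rough correction for gene length, the order was the same at its top on both days. At day 14, Ftl1 stood at 3692 ± 122, Fth1 at 2126 ± 124, Hmox1 at 698 ± 121 and Slc11a1 at 150 ± 9.98 CPM per kilobase (SD, n = 5), each apart from the next in every library. Blvra (58.7 ± 4.59), Slc40a1 (55.2 ± 8.37), Slc11a2 (46.4 ± 4.51), Blvrb (44.8 ± 6.81) and Tfrc (42.4 ± 8.54) followed, and each overlapped its neighbour. At day 4, Ftl1 (4528 ± 370) and Fth1 (3457 ± 569 CPM per kilobase, SD, n = 4) overlapped, and Hmox1 (1492 ± 175) and Slc11a1 (174 ± 22.7) followed without overlap. Then came Blvrb (63.6 ± 11.6) and Blvra (56.3 ± 1.52), which overlapped, and Slc40a1 (43.0 ± 6.05), Tfrc (33.7 ± 4.99) and Slc11a2 (27.2 ± 5.84), of which each overlapped the next. Slc11a2 was the lowest of the 9 at day 4 and the seventh at day 14. Exon lengths are the union of the exons in GENCODE's basic set, 1558 bases for Fth1 and 968 for Ftl1. A union can be longer than the transcript in use, so levels of different genes compare only roughly. Without the correction, Fth1 and Ftl1 averaged 3313 and 3574 CPM at day 14 and 5386 and 4383 CPM at day 4. The order of these 2 genes therefore depends on the lengths.

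Other genes of heme and iron metabolism were taken from 9 lists of the pathway. Of 76 tested, 7 were higher, 14 were lower and 55 did not pass, with a median log2 fold change of -0.10; 9 of them lie past the break and were tested in the 8 other libraries. The share called was 27.6%, near the 31.1% of all genes tested and the 28.6% called without day 14 replicate 5. Of 9 genes that take up or move heme and hemoglobin, 2 fell and 1 rose. Slc48a1, which carries heme out of the phagolysosome, held 128, 130, 115, 127 and 127 CPM at day 14, against 196, 189, 195 and 204 CPM at day 4, and fell 1.56-fold (log2 fold change -0.64 ± 0.07, adjusted p = 4.17e-05 by edgeR). Its days were far apart compared with the spread within each. Lrp1, the receptor for hemopexin-bound heme and for many other ligands, fell to 1174 ± 185 CPM at day 14, against 2156 ± 221 CPM at day 4 (log2 fold change -0.88 ± 0.12). It is also expressed by fibroblasts, whose markers fell, and their part in its change was not tested. The heme-binding protein gene Pgrmc1, on chromosome X, rose in the 8 other libraries (0.40 ± 0.12, adjusted p = 0.0296). Cd163, the scavenger receptor for hemoglobin bound to haptoglobin, had 528 ± 71.2 CPM in day 14 libraries and 637 ± 175 CPM in day 4 libraries and did not pass (adjusted p = 0.24).

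Of 8 heme synthesis genes tested, only Urod passed, lower at day 14 (log2 fold change -0.27 ± 0.09, adjusted p = 0.0421), and 11 of 21 alternatives ended its call, among them leaving out any library but day 14 replicate 3 or day 4 replicates 1 or 2. Alas1, the rate-limiting enzyme, on chromosome 9, averaged 92.3 ± 10.1 CPM in day 14 libraries and 80.6 ± 14.9 CPM in day 4 libraries (n = 4 each, adjusted p = 0.277 by edgeR). Fech, which inserts the iron in the last step, did not pass either (adjusted p = 0.162). Of 11 genes of iron uptake and reduction, the metalloreductase genes Steap1, Steap2 and Steap4 fell and the other 8 did not pass. Steap4 fell to 30.2 ± 5.86 CPM at day 14, against 63.9 ± 12.8 CPM at day 4 (-1.08 ± 0.16, adjusted p = 0.000326). Steap1 and Steap2 were scarce, at 0.142 ± 0.0694 and 2.07 ± 0.691 CPM at day 14 and 3.06 ± 2.13 and 7.77 ± 4.67 CPM at day 4. In both, day 4 replicate 2 was the highest library (6.18 and 14.6 CPM), which was also the library with the largest sum of fibroblast markers. Trf, transferrin itself, on chromosome 9, averaged 889 ± 72.2 CPM in day 14 libraries and 878 ± 59.1 CPM in day 4 libraries (n = 4 each, adjusted p = 0.9 by edgeR).

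Ncoa4, the receptor that delivers ferritin to lysosomes for breakdown, rose 1.25-fold (log2 fold change 0.32 ± 0.09, adjusted p = 0.018 by edgeR), the only one of 5 storage genes to pass, and its call was lost without day 4 replicate 4 (adjusted p = 0.0512). The iron chaperone genes Pcbp1 and Pcbp2 did not pass (adjusted p = 0.367 and 0.202). Of 5 genes of iron export and the hepcidin axis, Cp and Bmp2 rose, and Hfe and Heph did not pass (adjusted p = 0.897 and 0.8). Bmp2, a signal that induces hepcidin in the liver, rose 1.53-fold (log2 fold change 0.61 ± 0.15, adjusted p = 0.00796), and its call was lost in the 6 shallower libraries (0.44, adjusted p = 0.0552). Cp, ceruloplasmin, the copper oxidase that works with ferroportin, averaged 74.5 ± 19.4 CPM in day 14 libraries and 50.2 ± 5.72 CPM in day 4 libraries (0.57 ± 0.16, adjusted p = 0.0189, and adjusted p = 0.0596 without day 4 replicate 3). Among 6 genes of iron sensing, Fbxl5, which marks the iron regulatory protein IRP2 for destruction when iron is plentiful, fell 1.53-fold, to 172 ± 13.7 CPM at day 14, against 263 ± 38.6 CPM at day 4 (-0.62 ± 0.11, adjusted p = 0.00108). Aco1, which encodes IRP1, lay just over the threshold (0.21 ± 0.08, adjusted p = 0.0504) and passed in 6 of 21 alternatives. Ireb2, which encodes IRP2, on chromosome 9, averaged 119 ± 16.5 CPM in day 14 libraries and 116 ± 14.9 CPM in day 4 libraries (n = 4 each). Zfp36 and Zfp36l2, relatives that bind mRNA for decay, did not pass (adjusted p = 0.854 and 0.198).

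Of 17 genes of mitochondrial iron and iron-sulfur clusters, 4 fell and 13 did not pass. Those that fell were Slc25a28, a mitochondrial iron importer (log2 fold change -0.45 ± 0.10, adjusted p = 0.00447 by edgeR), Cisd1, an iron-sulfur protein of the outer membrane (-0.55 ± 0.12), Abcb8, a transporter of the inner membrane (-0.47 ± 0.13), and Isca1, an assembly factor (-0.39 ± 0.12). Cisd1 lost its call both in the 6 shallower libraries (adjusted p = 0.0819) and in the 3 deeper ones (adjusted p = 0.0704). Isca1 lost its call without day 14 replicates 1, 2 or 4 or day 4 replicate 1, and Abcb8 without day 4 replicate 4. Slc25a37, the related iron importer and the most abundant of the list, had 120 ± 6.49 CPM in day 14 libraries and 118 ± 14.0 CPM in day 4 libraries (adjusted p = 0.864).

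Of 13 transcriptional regulators that act on Hmox1 or Slc40a1, 3 rose and 2 fell. Bach1, the repressor of Hmox1 that heme inactivates, held 1196, 1041, 886, 1248 and 875 CPM at day 14, against 828, 834, 694 and 602 CPM at day 4 (log2 fold change 0.50 ± 0.14, adjusted p = 0.0159 by edgeR). Its partner Mafk rose too (0.38 ± 0.10, adjusted p = 0.00942). Nfe2l2, which encodes NRF2, the activator of Hmox1, ferritin and Slc40a1, rose to 897 ± 119 CPM at day 14, against 683 ± 102 CPM at day 4 (0.39 ± 0.12, adjusted p = 0.0299), a call lost without day 14 replicates 1 or 2 or day 4 replicates 3 or 4. In the 6 shallower libraries, Bach1, Mafk and Nfe2l2 were at 0.27, 0.21 and 0.13 and did not pass (adjusted p from 0.247 to 0.489). Nr1h3, which encodes the oxysterol receptor LXR alpha, fell to 15.5 ± 1.48 CPM at day 14, against 28.8 ± 2.23 CPM at day 4 (-0.90 ± 0.10), and Hif1a, the oxygen-regulated factor that also acts on Hmox1 and Tfrc, to 397 ± 59.2 CPM at day 14, against 735 ± 121 CPM at day 4 (-0.89 ± 0.13). Both calls held in all 21 alternatives. Spic, the factor that drives ferroportin in red pulp macrophages, had 19.8 ± 5.05 CPM in day 14 libraries and 17.5 ± 2.34 CPM in day 4 libraries (adjusted p = 0.493).

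**Figure D5:**
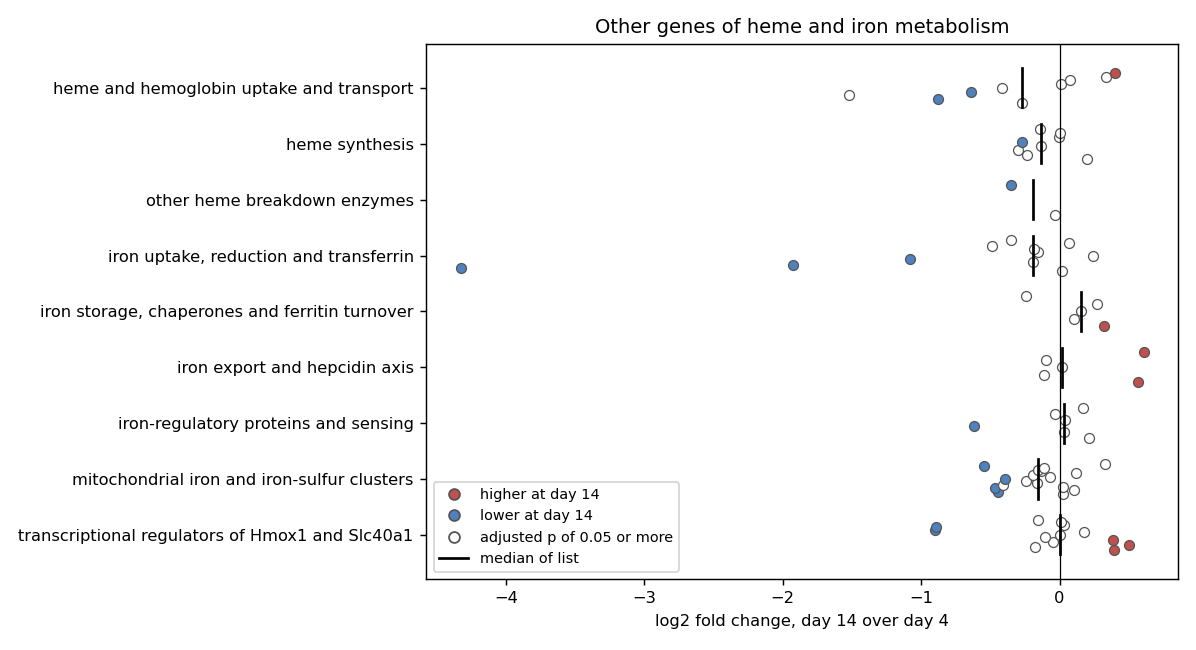
Log2 fold change, day 14 over day 4, of each tested gene in 9 lists of heme and iron metabolism (points, red for higher and blue for lower with an adjusted p under 0.05, open otherwise), with the median of each list as a black line. Most points lie near 0; Steap1, at -4.33, lies farthest out, and the medians run from -0.27 to 0.16.

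The promoters of Slc11a1, Blvra, Blvrb, Ftl1, Tfrc and Fth1 in RefSeq (GRCm38.p6, 250 bases before to 50 after the start, 9 windows for 6 genes) were searched on both strands for the antioxidant response element TGACNNNGC, bound by NRF2 and its relatives, and the hypoxia response core ACGTG. The first was found in 1 of the 9 windows, that of Blvra, 49 bases before the start, and stands in 12.4% of all 32851 windows. The second was found in 3 windows, of Blvrb and of both overlapping windows of Tfrc, which hold the same match, and in 19.6% of all windows. No window was at hand for Hmox1, Slc40a1 or Slc11a2, and sequence outside the windows was not searched. The search therefore cannot show whether the group as a whole holds or lacks these elements.

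The genes with the most similar pattern were sought for the 6 that passed, as the smallest root mean square difference of centred log2 CPM over the 9 libraries among 7577 other genes with a mean of at least 10 CPM. For Hmox1 they were Cfb, a complement factor, Ctsl, a lysosomal protease, and Ptgr1, a prostaglandin reductase (0.186 to 0.204, against a median of 0.601 over all genes). For Fth1 they were P4hb, Atox1 and Tuba4a (0.0703 to 0.075, median 0.407), and for Ftl1 Tfec, Faf2 and Phb2 (0.0271 to 0.0435, median 0.242). For Blvrb they were Rab4b, Xylt2 and Tspo (0.0712 to 0.0796, median 0.372). For Slc11a2 they were Nfkb1, Rapgef2 and D16Ertd472e (0.0783 to 0.118, median 0.461), and for Slc40a1 Zfp266, Arpc5l and Gtf3c6 (0.103 to 0.106, median 0.316). This likeness mostly reflects the difference between the days: with each day centred on its own mean, 0 or 1 of the 3 genes was shared for each of the 6.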

How the data were processed

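The members and gene lists were chosen with earlier results of these data known. The submitters' processing notes name the build mm10 and the tools HISAT2 2.1.0, CASAVA 1.8, Partek 6.6, SAMtools 1.4 and DESeq2; their roles, the counting and the annotation are not given in the sources used here. Libraries were made with the TruSeq RNA kit v2, per the labels' protocols; this kit does not mark strand, so antisense reads cannot be told apart. The authors deposited estimated counts per gene symbol, not normalized, of which 17.2% were not whole; they were rounded. A second deposited table holds normalized signal; it served only to check that its values for the 9 genes equal the counts times 1 factor per library (largest deviation 0.00304%).

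RefSeq positions (GRCm38.p6) matched 17103 genes by symbol and 1098 by an older name. Aplp2, the genes after it on chromosome 9, and those on X, Y or of unknown position (1604 genes) were left out, because day 14 replicate 5 holds almost no counts for them. Values of such genes come from a fit of all genes in the 8 other libraries. Genes were filtered with filterByExpr, scaled with TMM and tested with edgeR 4.0.16 (robust glmQLFit, glmQLFTest, two-sided, R 4.3.3). Standard errors come from the F statistic. The method was tested on simulated data. All 9 genes were described; of each list, the 3 lowest p, the most abundant, and all calls where 5 or fewer passed in a direction are named, except 1 gene that is not reported here. Cd163, Spic, Ireb2, Abcg2, the hemoglobin genes and the markers named singly were picked with their values known. The nearest genes are the 3 most alike for each gene that passed, predicted genes left out. Other settings tried were total-count, RLE and upper-quartile scaling, DESeq2 1.42.0, limma-voom (limma 3.58.1), 2 other filters, non-robust dispersion, the genes past the break kept, library size as covariate, the 6 shallower or 3 deeper libraries, and leaving out each library. A planned comparison of protein sequences was not made.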

Additional observations from a re-analysis of the deposited data

Results flagged for a closer look

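A library stood apart from the others of its day in 5 of the 82 groups looked at (41 genes on 2 days), where chance gives about 1 in 20. Blvra was at 87.7 CPM in day 14 replicate 4, and at 72.9 to 75.4 CPM in the 4 other day 14 libraries. Slc48a1 was at 115 CPM in day 14 replicate 3, below 127 to 130 CPM in the others, and this low value lies farther from day 4 than the rest. Abcg2, a heme exporter that did not pass the test, was at 18.9 CPM in day 14 replicate 1, above 14.1 to 15.2 CPM. Nfe2l2 was at 1104 CPM in the same library, above 812 to 872 CPM, and lost its call without it. Cp was at 41.7 CPM in day 4 replicate 3, below 52.3 to 53.9 CPM, and lost its call without it.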

How the results depend on the processing

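The calls of Hmox1, Fth1 and Slc11a2 and the direction of all 9 genes held in all 21 alternatives. Of the 9 genes, the number called higher was 2, and it was 1 with total-count scaling, no low-count filter, the genes past the break kept, library size as covariate or the 6 shallower libraries, where Slc40a1 lost its call (adjusted p from 0.0511 to 0.233). It was 3 in the 3 deeper libraries, where Tfrc passed too, with 1 library at day 14. The number called lower was 4, it was 4 in the 3 deeper libraries, and it was 2 with library size as covariate (Blvrb at -0.41 and Ftl1 at -0.26, adjusted p = 0.0759 and 0.0813) or in the 6 shallower libraries. Leaving out 1 library gave 1 to 2 higher and 3 to 4 lower genes. Over all genes, the 6 shallower libraries called 976 higher and 986 lower genes, the 3 deeper ones 2504 and 2431, and all 9 libraries 1946 and 1854; leaving out 1 library gave 1480 to 2190 and 1370 to 2195. The 6 shallower libraries also ended the calls of Urod, Bmp2, Cp, Ncoa4, Cisd1, Abcb8, Isca1, Por, Mafk, Bach1 and Nfe2l2, with the direction kept (adjusted p from 0.0552 to 0.489), and in the 3 deeper ones Pcbp2 and Abcg2 passed (adjusted p = 0.0462 and 0.00545). Among named genes that did not pass, signs changed for Hmox2 (0.036 with library size as covariate, 0.044 in the 6 shallower libraries), Slc25a37 (-0.11 in the 6 shallower), Hfe (-0.16) and Zfp36 (-0.23, both in the 3 deeper), and leaving out 1 library gave -0.031 to 0.060 for Hfe, -0.060 to 0.094 for Zfp36, -0.023 to 0.10 for Slc25a37 and -0.085 to 0.0048 for Hmox2. The causes were not tested. No paired analysis was possible because the labels do not pair libraries of the 2 days. The replicate numbers used here only count libraries within each day. Scaling moved the median of all genes by at most 0.03 on the log2 scale.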
